A study of Sus scrofa with 20 samples.

Results

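A group of 5 genes, most of them known from tendon and cartilage, was followed across 4 skin sites of the pig. They are COMP (ENSSSCG00000013916), THBS4 (ENSSSCG00000014117), MKX (ENSSSCG00000029783), CILP (ENSSSCG00000004928) and ANGPTL7 (ENSSSCG00000003414), 5 of the 19280 gene identifiers of the deposited table. All 5 passed the filter on low counts. They were chosen by their differences between sites in these same libraries, so the levels and fold changes between sites are given as a description, with no test. The only test of these genes is of whether a site difference was the same in the 2 sets of libraries described below.

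The samples were 4 mm skin biopsies of 5 wild-type female Yorkshire pigs without treatment. Each pig gave a biopsy of the sole of the foot, which the labels call volar, of its upper surface (dorsal in the labels, here upper foot), of the flank and of the snout. The study asked which genes differ between these sites. Library numbers fall into 2 ranges. The lower range, here the first set, covers the 12 libraries of the 4-, 7- and 8-month-old pigs, and the higher range, the second set, covers the 8 libraries of the 5- and 6-month-old ones. Each site of the first set is therefore 3 libraries and each site of the second set 2. First-set libraries were used under their labels.

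Second-set libraries were used under the site whose first-set libraries their expression matched, and not under the deposited label. By this match the libraries labelled flank were used as sole, those labelled volar as snout, those labelled dorsal as flank and those labelled snout as upper foot. The match was computed over 2000 genes and was the same for all 8 libraries when the gene lists used here, or the skeletal muscle genes, were left out. The narrowest margin was that of the 6-month library labelled dorsal, with an r of 0.807 to first-set flank and 0.749 to first-set dorsal. A site found in this way is read from expression and is not independent of it. Results within the first set alone and under the deposited labels are therefore given as well. Totals ran from 34077861 to 66906489 counts per library.

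Tendon and cartilage owe their strength to collagen fibrils that are assembled and spaced by other matrix proteins. COMP (cartilage oligomeric matrix protein) and THBS4 are thrombospondins that assemble into molecules of 5 subunits. COMP binds collagens and helps them assemble into fibrils, and THBS4 is a matrix protein of tendon and muscle attachments. CILP is a secreted protein of the intermediate layer of cartilage that binds TGF-beta. MKX (Mohawk) is a homeobox transcription factor of the TALE class that is needed for tendon collagen synthesis. ANGPTL7 is a secreted angiopoietin-like protein known best from the cornea and the fluid outflow tissue of the eye.

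The thrombospondin genes were high in both hairless sites, sole and snout, and low in haired skin. Levels are counts scaled to library size with TMM factors (CPM), and they compare 1 gene between libraries, never 2 genes, since no transcript lengths were used. COMP stood at 265, 58.5 and 30.5 CPM in the sole libraries of the 4-, 7- and 8-month pigs, and at 89.8 and 3.29 CPM in the 5- and 6-month libraries labelled flank and matched to sole. In snout it was 64.9, 69.5 and 59.9 CPM in the first set (4, 7 and 8 months) and 57.1 and 52.5 CPM in the second (5 and 6 months, labelled volar). The 5 snout libraries lay close together, within 1.32-fold, while the 5 sole libraries spread over 80.5-fold, with the 4-month library far above the rest and the 6-month library far below.

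In upper foot COMP was 2.35, 2.01 and 4.25 CPM in the first set and 1.16 and 3.57 CPM in the second (labelled snout). In flank it was 0.185, 0.240 and 0.401 CPM in the first set and 0.317 and 0.599 CPM in the second (labelled dorsal). Every flank library lay below every library of the other sites, and the 6-month sole library at 3.29 CPM lay inside the range of upper foot. The flank values rest on only 8 to 26 counts per library. Averaged over the 2 sets, COMP was 7.70 ± 0.98 (log2 fold change ± SE) higher in sole than in flank. It was 7.39 ± 0.97 higher in snout than in flank, and the 2 comparisons share the flank libraries. Each SE in this report is the log2 fold change, without sign, divided by the square root of edgeR's F statistic. Such an SE is approximate and, for these 5 genes, is not read as a test. Sole and snout differed by 0.32 ± 0.67, with sole higher in 2 of 5 pigs. That value fell to -1.60 without the 5-month sole library, so the order of sole and snout was not settled.

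THBS4 followed the same 2 sites with less spread. It stood at 2565, 1016 and 1402 CPM in first-set sole (4, 7 and 8 months) and at 1541 and 717 CPM in second-set sole (5 and 6 months). In snout it was 1093, 637 and 579 CPM in the first set and 1099 and 754 CPM in the second. The 2 sites overlapped, with sole higher in 4 of 5 pigs and an averaged difference of 0.70 ± 0.38 on the log2 scale.

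In upper foot THBS4 was 65.7, 20.1 and 31.7 CPM in the first set and 15.3 and 35.4 CPM in the second. In flank it was 12.9, 6.40 and 7.12 CPM in the first set and 11.4 and 12.3 CPM in the second. No sole or snout library overlapped with any library of the haired sites, and no upper foot library with any of flank. The averaged log2 fold changes were 7.07 ± 0.52 for sole against flank, 6.37 ± 0.50 for snout against flank and 5.44 ± 0.48 for sole against upper foot. THBS4 reached 101190 estimated counts in the 4-month sole library, and its lowest count in any library was 427, so counting error was small next to the spread between pigs. Its value was not a whole number in any of the 20 libraries, which shows that a few reads were shared out between transcripts by the estimation. In the RefSeq gene table (Sscrofa11.1) a tRNA gene and an uncharacterised lncRNA gene overlap it.

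**Figure D1:**
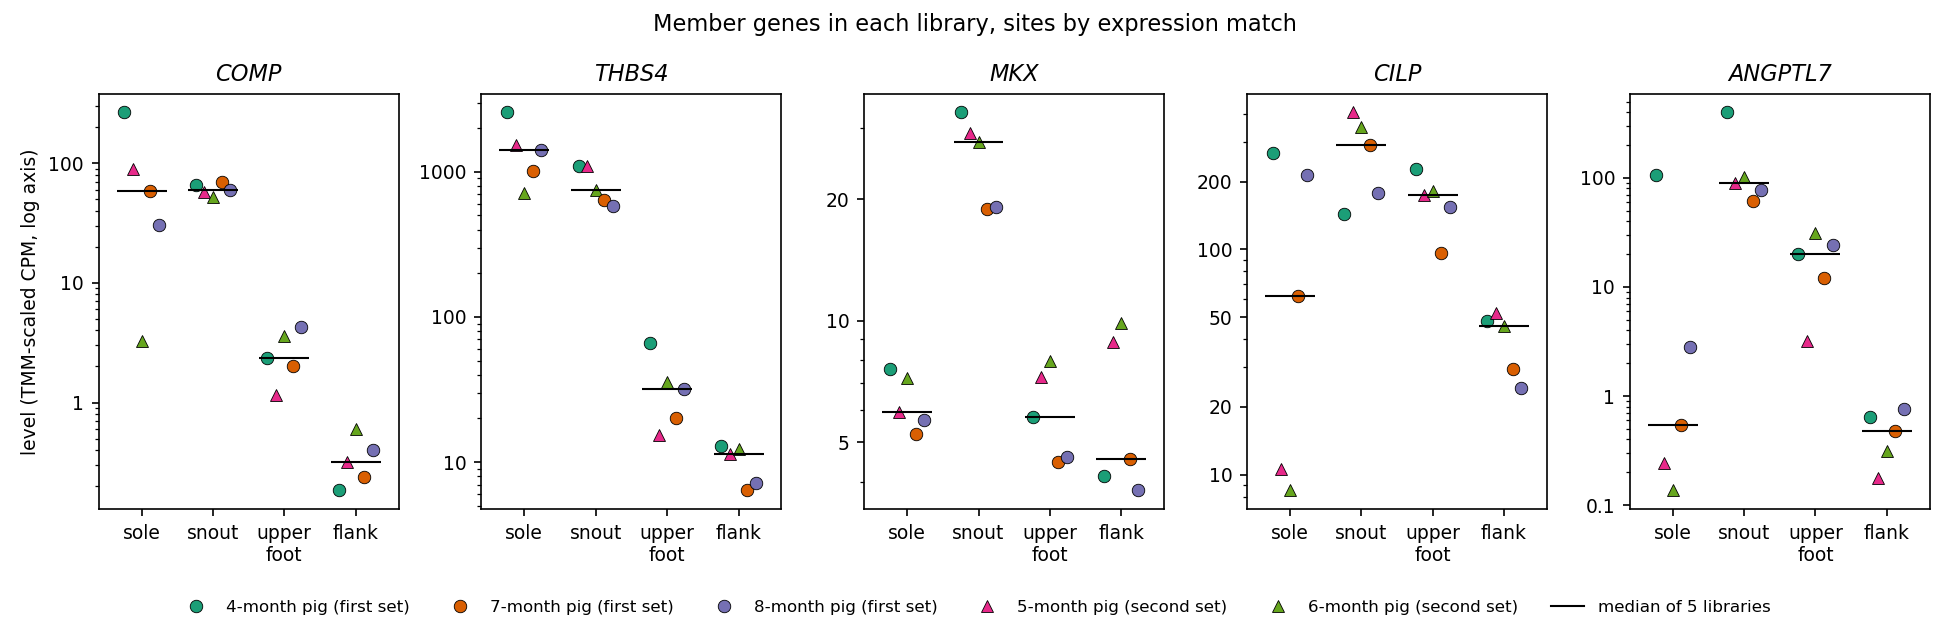
Level of each gene (TMM-scaled CPM, log axis) in the 20 libraries by site, with circles for the first set, triangles for the second set placed by expression match, colours for the 5 pigs and a line at the median of the 5 libraries. COMP and THBS4 are high in sole and snout, MKX in snout, and CILP and ANGPTL7 spread in sole from 8.54 to 267 CPM and from 0.137 to 107 CPM.

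MKX, the one transcription factor of the group, was high in snout alone. It stood at 32.8, 18.9 and 19.1 CPM in first-set snout and at 29.2 and 27.8 CPM in second-set snout. In sole it was 7.61, 5.25 and 5.68 CPM in the first set and 5.96 and 7.22 CPM in the second, and over the 10 upper foot and flank libraries it ran from 3.81 to 9.87 CPM. No snout library overlapped with a library of any other site, and the other 3 sites overlapped with each other. The averaged log2 fold changes were 2.06 ± 0.17 for snout against flank, 2.08 ± 0.17 for snout against upper foot and -2.02 ± 0.17 for sole against snout. Sole differed from flank by 0.03 ± 0.17, the mean of 0.57 ± 0.21 in the first set and -0.51 ± 0.26 in the second, with no overlap in either, so that the mean describes neither. The flank libraries of the second set, at 8.87 and 9.87 CPM, were above those of the first, at 3.81 to 4.56 CPM.

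By the median over both sets CILP was highest in snout and upper foot, and its level in sole depended on the set. In the first set sole overlapped with both of these sites. In snout it was 144, 290 and 178 CPM in the first set (4, 7 and 8 months) and 406 and 349 CPM in the second (5 and 6 months). In upper foot it was 226, 96.3 and 154 CPM in the first set and 175 and 181 CPM in the second. Flank was lower, at 48.1, 29.6 and 24.1 CPM in the first set and 52.2 and 45.9 CPM in the second, with no overlap with snout or upper foot. The averaged log2 fold changes against flank were 2.77 ± 0.37 in snout and 2.04 ± 0.36 in upper foot.

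In sole CILP stood at 267, 62.3 and 214 CPM in the first set and at 10.6 and 8.54 CPM in the second. All 3 first-set sole libraries were thus above all 5 flank libraries, and both second-set sole libraries were below them. The averaged difference between sole and flank, 0.03 ± 0.35, was the mean of 2.42 ± 0.46 in the first set and -2.36 ± 0.56 in the second, and describes neither. Sole also lay -5.30 ± 0.64 from snout in the second set and only -0.17 ± 0.43 in the first.

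ANGPTL7 was highest in snout in every pig and varied most within a site. In snout it was 398, 61 and 76.8 CPM in the first set and 88.9 and 102 CPM in the second. In upper foot it was 19.8, 12.2 and 24.4 CPM in the first set and 3.17 and 30.9 CPM in the second, below every snout library. In flank all 5 libraries lay between 0.176 and 0.756 CPM, which is 10 to 49 counts. Snout exceeded flank by 8.40 ± 1.47 and upper foot exceeded flank by 5.53 ± 1.31 on the log2 scale, averaged over the sets.

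In sole ANGPTL7 stood at 107, 0.540 and 2.80 CPM in the first set and at 0.244 and 0.137 CPM in the second, the last 2 being 7 and 3 counts. The 4- and 8-month sole libraries were above all 5 flank libraries and the other 3 were inside or below the flank range, and the sole range spread over 781-fold. The averaged log2 fold change of sole against flank was 2.80 ± 1.92, and 0.59 without the 4-month sole library. In the RefSeq gene table ANGPTL7 lies within the span of MTOR, which encodes a growth-signalling kinase. The strand used in counting is not given in the sources used here. MTOR ran from 56.8 to 118 CPM over all 20 libraries, with site medians of 83.1 in sole, 81.0 in snout, 74.9 in upper foot and 67.3 in flank.

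The order of the site medians thus differed between the genes. For COMP it was snout, sole, upper foot and flank (59.9, 58.5, 2.35 and 0.317 CPM), and only upper foot and flank were neighbours without overlap. For THBS4 it was sole, snout, upper foot and flank (1402, 754, 31.7 and 11.4 CPM), with overlap between sole and snout alone. For MKX snout (27.8 CPM) stood clear of sole, upper foot and flank (5.96, 5.79 and 4.56 CPM). For CILP all neighbours overlapped in the order snout, upper foot, sole and flank (290, 175, 62.3 and 45.9 CPM). For ANGPTL7 snout (88.9 CPM) stood clear of upper foot (19.8 CPM), and sole and flank (0.540 and 0.480 CPM) overlapped with a neighbour.

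Counted over the 5 genes, 2 were higher without overlap in sole than in flank (COMP, THBS4) and 1 in sole than in upper foot (THBS4). None was higher and 1 was lower (MKX) in sole than in snout. Snout stood above flank without overlap for 5 of 5 and above upper foot for 4 of 5, all but CILP, and upper foot stood above flank for 4 of 5, all but MKX. These comparisons chose the genes, and nothing is read from the counts. The share of all genes without overlap was not computed. The shares that follow rest on a test instead, so they cannot be set against these counts. For reference, the share of all 15735 tested genes called higher and lower (edgeR, adjusted p under 0.05) was 25.4% and 29.7% for sole against flank, 24.1% and 26% for sole against upper foot, and 19.8% and 23.8% for sole against snout. It was 15.7% and 13% for snout against flank, 13.6% and 8.71% for snout against upper foot, and 0.585% and 0.902% for upper foot against flank, 234 genes that became 426 with the pig as block. With upper-quartile scaling the calls of snout against upper foot were 1668 higher and 1716 lower, in place of 2141 and 1371.

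**Figure D2:**
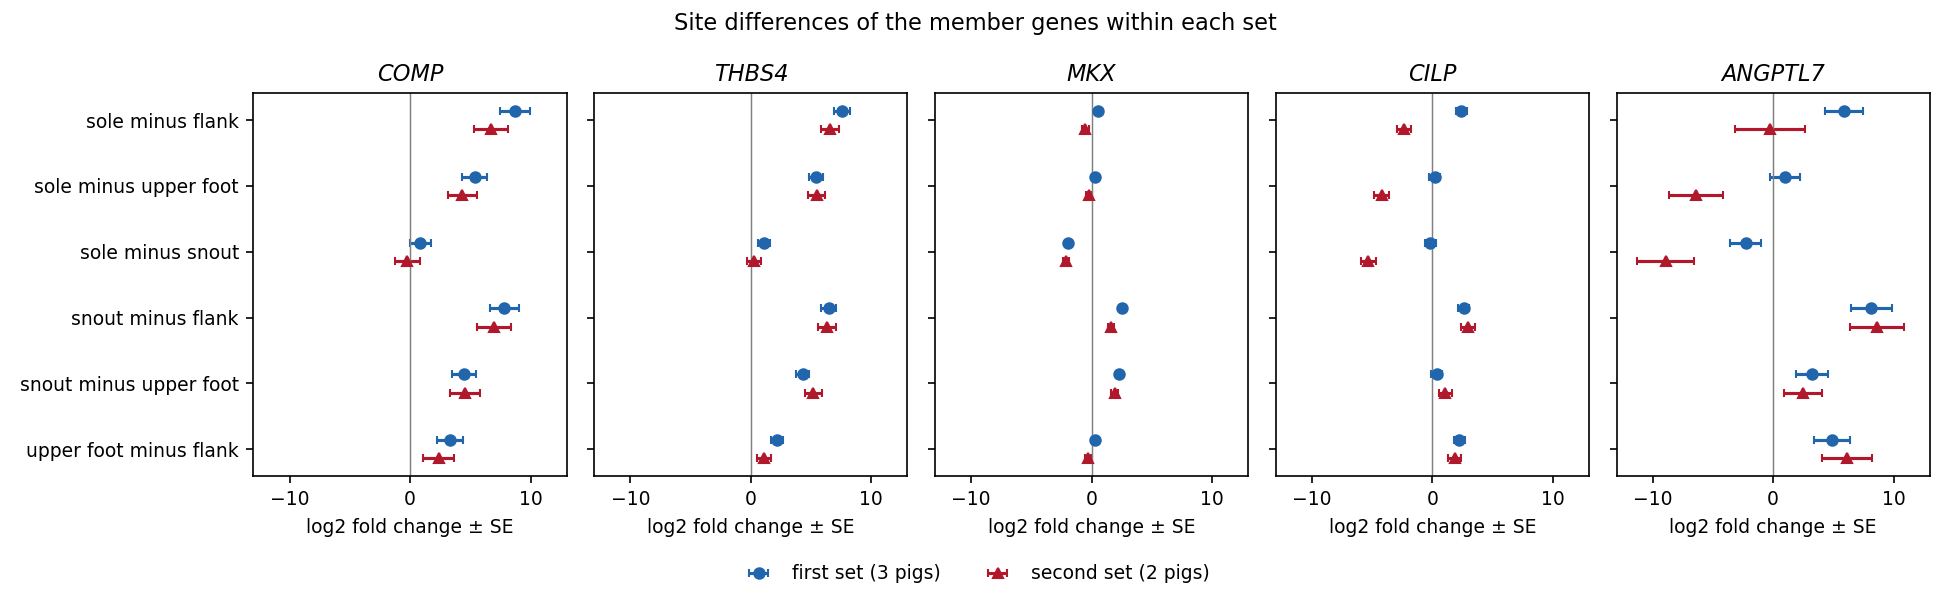
Log2 fold change between sites for each gene, with its SE, in the first set (blue circles, 3 pigs) and the second set (red triangles, 2 pigs). The sets lie furthest apart for CILP and ANGPTL7 in the comparisons of sole, where CILP moves from 2.42 to -2.36 against flank, and MKX also changes sign there, from 0.57 to -0.51.

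The site differences of the first set were next tested against the matched differences of the second. Of 30 tests (5 genes, 6 comparisons), 3 were called with edgeR's quasi-likelihood test and Benjamini-Hochberg adjustment over all genes, all of them of CILP in comparisons of sole. The difference was 4.77 ± 0.73 for sole against flank (adjusted p = 0.0178), 4.41 ± 0.72 against upper foot (0.0294) and 5.13 ± 0.74 against snout (0.0158). All 3 use the same sole libraries, so they are not separate results. Over all tested genes 0.941%, 0.496% and 0.267% were called in these 3 comparisons. In the other 3 comparisons 0% were called (edgeR, with 412, 156 and 128 genes at an unadjusted p under 0.05). There DESeq2 called 5, 3 and 0 genes over the whole table and limma-voom none.

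The size of the CILP difference changed little under other settings, but the call did. Without the 6-month sole library the differences were 4.63, 4.26 and 4.99, with adjusted p of 0.0747, 0.106 and 0.0822, so that 0 of 30 tests were called. Leaving out the whole 4-, 5- or 6-month pig also left 0, and leaving out the 8-month pig left 1. ANGPTL7 differed between the sets by 6.13 ± 3.21, 7.39 ± 2.58 and 6.63 ± 2.56 in the same comparisons, which edgeR did not call (adjusted p = 0.336, 0.174 and 0.223). DESeq2 called these 3 as well as the 3 of CILP, and limma-voom called none (CILP adjusted p = 0.0654, 0.0966 and 0.0865). Without the 4-month sole library the ANGPTL7 values were 1.70, 2.96 and 2.20. For COMP, THBS4 and MKX no test of the difference between sets was called under any of these settings.

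Markers of connective tissue cells moved with the set in sole. The summed level of 9 fibroblast markers (collagen, decorin, lumican and receptor genes among them) was 39170, 13650 and 20520 CPM in first-set sole (4, 7 and 8 months) and 8975 and 6971 CPM in second-set sole. This sum is unweighted, so the markers with the most counts weigh most. The highest count in any library was 2237763 for COL1A1, 4958897 for COL1A2 and 5334665 for COL3A1. For the other fibroblast markers it was at most 410185 (DCN). The summed level of 4 keratinocyte markers was 260800 to 293100 CPM in the first set and 480200 and 590400 CPM in the second. Set against the fibroblast sum of its own library, CILP still differed, at 4.57 to 10.4 per 1000 CPM of fibroblast markers in the first-set sole libraries and 1.18 and 1.23 in the second. In bulk tissue fewer cells of a type and less RNA per cell cannot be told apart. The part of tissue makeup in the set difference was not tested beyond these values.

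The same sums bear on the site pattern. Fibroblast markers summed to 6971 to 39170 CPM in sole, 23400 to 52900 in snout, 29800 to 84200 in upper foot and 103000 to 232000 in flank, so that COMP and THBS4 were lowest where these markers were highest. Per 1000 CPM of fibroblast markers, THBS4 was 65.5 to 172 in sole, 20 to 28.3 in snout, 0.182 to 1.06 in upper foot and 0.0464 to 0.108 in flank. On this scale sole and snout no longer overlapped for THBS4. COMP was 0.472 to 10.0 in sole, 1.08 to 2.56 in snout, 0.0138 to 0.142 in upper foot and 0.00136 to 0.00529 in flank. MKX was 0.552 to 0.901 in snout and 0.194 to 1.04 in sole, so its separation of snout from sole did not hold on this scale. The scale was chosen after seeing the data and is a description. It leans on the most abundant markers, which are collagen genes, and is not a measure of how many fibroblasts a biopsy held.

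**Figure D3:**
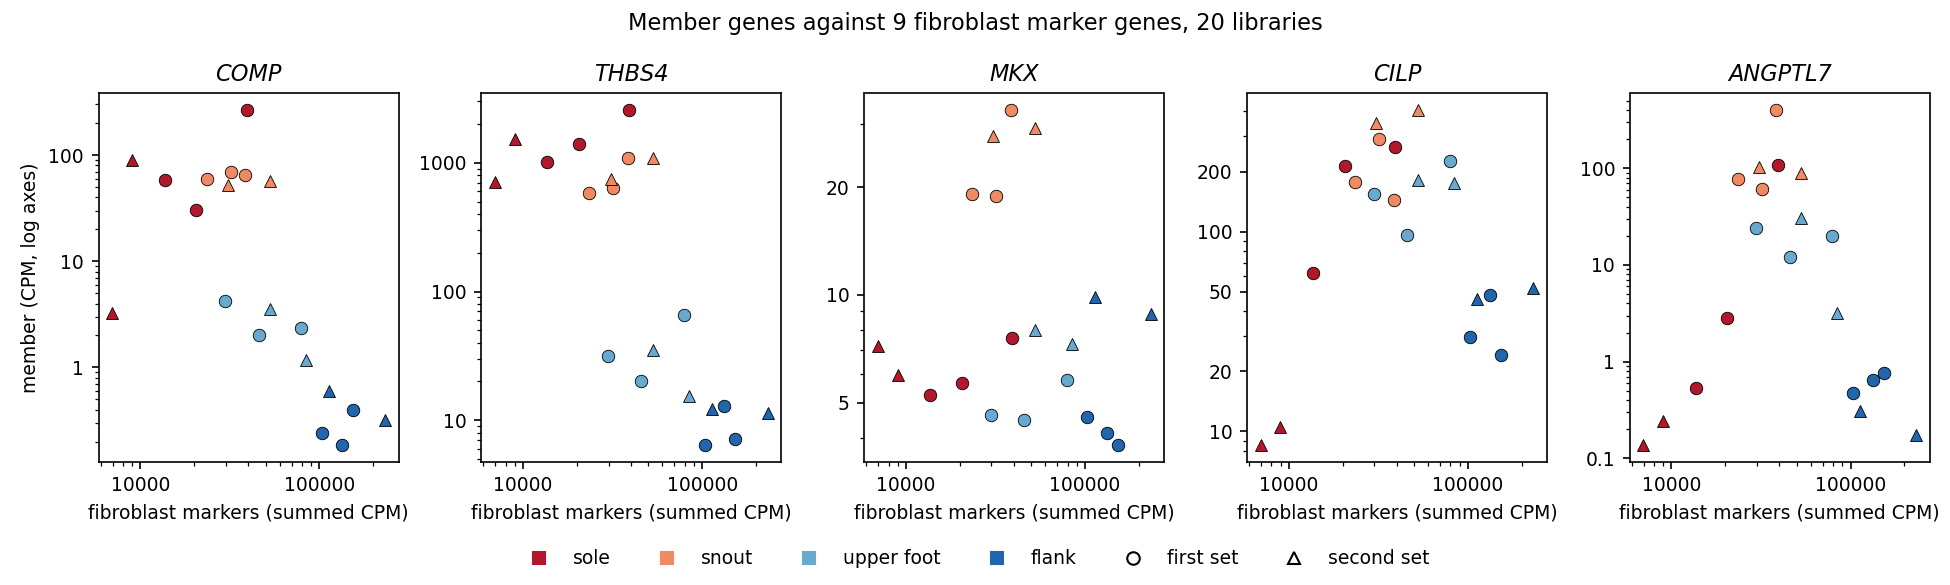
Level of each gene (CPM) against the summed CPM of 9 fibroblast marker genes in the same library, both axes logarithmic, with colours for sites and circles and triangles for the first and second set. Flank libraries lie at the right (103000 to 232000 CPM) and sole libraries at the left (6971 to 39170 CPM), and the 2 second-set sole libraries are the lowest of all in both CILP and fibroblast markers.

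The 4-month sole library stood apart. It was the highest of the 5 sole libraries for all 5 genes, by the widest margin for ANGPTL7 at 107 against at most 2.80 CPM. Among 46 other tested tendon and cartilage genes it was the highest for 25 (54.3%), and over all tested genes for 3997 (25.4%). CILP2, the closest relative of CILP, was at 50.3 CPM there and at most 0.798 CPM in the other 4. ACAN, which encodes the main proteoglycan of cartilage, was at 17.0 CPM and at most 3.84 CPM in the others. That level lay inside the range of ACAN in the upper foot libraries. Of the other chondrocyte genes, COL2A1 and COL9A1 were higher in the 7-month sole library (4.58 against 3.24 CPM, and 4 against 3 counts). MATN1 and HAPLN1 had 0 counts in the 4-month sole library. CNMD was highest there, at 0.583 against at most 0.564 CPM. The fibroblast sum was also highest in this library of the 5. The defining tendon genes SCX, at 0.887 CPM, and TNMD, at 0.659 CPM, were also highest there among the 5 sole libraries.

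Tenocytes and chondrocytes have defining genes of their own, and their levels in sole differed from library to library. SCX, a transcription factor of tendon progenitors, ran from 0.129 to 0.887 CPM in sole and from 0.462 to 2.39 CPM in snout. It was higher in sole than in the flank of the same pig at 4 months (0.887 against 0.162 CPM) and 8 months (0.506 against 0.200 CPM) and lower in the other 3 pigs. Averaged over both sets, edgeR called SCX lower in sole than in snout, but not in the first set alone (-0.64, adjusted p = 0.596). TNMD (tenomodulin), a membrane protein of mature tendon cells, was at 3.83 to 21.0 CPM in snout, 0.959 to 8.63 in upper foot and 0.0695 to 0.844 in flank. In sole it had 26, 2 and 5 counts in the first set and 0 in both second-set libraries, where a count of 0 allows up to 3. Snout exceeded flank by 4.47 ± 0.61 for TNMD (edgeR adjusted p = 0.000127) and by 2.25 ± 0.48 for SCX (0.00272) on the log2 scale, in 5 of 5 pigs each. The SCX call was lost in the first set alone (2.23, adjusted p = 0.054) and without the 5- or 6-month pig (0.061 and 0.052).

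Of the chondrocyte genes, COL2A1, the main collagen of cartilage, stood at 2.00 to 6.56 CPM in snout and 0.0308 to 0.417 CPM in flank (4.76 ± 0.88, adjusted p = 0.00108). In sole it was at 3.24 and 4.58 CPM in the 4- and 7-month libraries, inside the snout range, and had 10, 2 and 0 counts in the others. Averaged over both sets, edgeR called COL2A1 lower in sole than in snout, but not in the first set alone (-0.73, adjusted p = 0.681). MATN1, which encodes the cartilage matrix protein matrilin, had 0 counts in 4 sole libraries and 1 in the other, against 32 to 172 counts in snout. It was higher in upper foot, at 240 to 704 counts, and ran from 2 to 421 counts in flank. COL9A1 had at most 4 counts in a sole library. HAPLN1, which links aggrecan to hyaluronan, had 0 counts in 4 of 5 sole libraries. CNMD ran from 0.813 to 2.02 CPM in snout and from 1.36 to 3.80 CPM in flank. Of the 6 chondrocyte markers, 1 (COL2A1) was called higher in snout than in flank and 5 were not called. Over all genes 15.7% were called higher there. The 6 chondrocyte markers summed to 1.10 to 20.9 CPM in sole and 13.3 to 28.4 CPM in snout, beside 18.1 to 32.7 in upper foot, where COMP was low. The 2 tenocyte markers summed to 0.137 to 1.55 CPM in sole and 4.39 to 23.4 CPM in snout.

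The wider lists of tendon and cartilage genes were lower in sole. They hold genes chosen with earlier results of these data known, and the 5 genes above are left out of their counts. Over all genes 29.7%, 26% and 23.8% fell in sole against flank, upper foot and snout, and 25.4%, 24.1% and 19.8% rose. Of 27 tested tendon genes, 17 fell and 2 rose in sole against flank, with a median log2 fold change of -2.09 beside -0.06 over all genes. In sole against upper foot 16 fell and 1 rose (median -1.40, all genes -0.05), and in sole against snout 20 fell and 0 rose (median -1.36, all genes -0.05). COL1A2, a chain of the main fibrillar collagen, fell by 4.06 ± 0.43 in sole against flank (adjusted p = 1.64e-06), and DCN, a proteoglycan that coats collagen fibrils, fell by 3.11 ± 0.24 (1.08e-07). EGR2, a transcription factor of tendon collagen genes, fell by 4.73 ± 0.42 (3.4e-07) and ABI3BP by 3.57 ± 0.31 (2.89e-07). The 2 that rose against flank were TNC, a tenascin of mechanically loaded tissue (1.10 ± 0.28, 0.00407), and TPPP3, a tubulin-binding protein and marker of the tendon sheath (2.00 ± 0.57, 0.00793), and TPPP3 was the 1 that rose against upper foot. Without the 5-month pig these 3 calls were lost (TNC 0.79, adjusted p = 0.123; TPPP3 1.89, 0.0664, against flank and 1.92, 0.0682, against upper foot), and TPPP3 against flank was not called in the first set alone (1.49, 0.132) nor TNC in the second (0.57, 0.137).

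Cartilage genes fell in sole as well, and the shares of all genes just given hold for these comparisons too. Of 22 tested, 11 fell and 1 rose against flank (median -1.75), 11 fell and 1 rose against upper foot (-2.16), and 14 fell and 1 rose against snout (-2). COL11A1, a collagen of cartilage fibrils, fell by 5.88 ± 0.59 in sole against upper foot (1.67e-06), where it averaged 2.89 against 106 CPM, and MATN4 fell by 8.07 ± 0.65 against flank (1.36e-07). SOX5, a transcription factor of chondrocytes, fell by 2.01 ± 0.25 (8.1e-06). The gene that rose against flank and upper foot was SNORC, a proteoglycan of cartilage, at a mean of only 0.210 CPM in sole, 0.0142 in flank and 0.0259 in upper foot (adjusted p = 0.00864 and 0.0195, and 0.0857 and 0.0957 in the first set alone). Against snout it was SCRG1 (0.56 ± 0.20, 0.0364), whose call was lost with the pig as replicate block (0.54, 0.0554), in either set alone and without any of 7 single libraries. The counts were smaller in the first set alone, with 7 cartilage genes lower than flank, 7 than snout and, of the tendon list, 7 lower than upper foot and 5 than snout. The fibroblast markers fell with them, 9 of 9 in sole against flank, 8 against upper foot and 7 against snout, and their part in these counts was not tested. The lists overlap, since COL1A1, COL1A2 and DCN are in both the tendon and fibroblast lists. COL11A1, CHAD and CILP2 are in both the tendon and cartilage lists.

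In snout the lists split. Over all genes 15.7% rose and 13% fell in snout against flank, and 13.6% and 8.71% in snout against upper foot. In upper foot against flank the shares were 0.585% and 0.902%. Of the tendon genes 9 rose and 11 fell against flank, and 8 rose and 2 fell against upper foot. Those that rose against flank included TNC (2.28 ± 0.30, adjusted p = 6.28e-05), FMOD, a small proteoglycan of tendon (2.35 ± 0.34, 0.000159), and its relative BGN (1.73 ± 0.32, 0.00114). Those that fell included COL1A2 (-2.24 ± 0.39, 0.000628) and DCN (-1.35 ± 0.23, 0.000515). Of the cartilage genes 8 rose and 4 fell against flank, and 7 rose and 2 fell against upper foot, among them CHAD, a cell-binding matrix protein that rose by 1.87 ± 0.36 against flank (0.0013). Between upper foot and flank 1 tendon gene rose (TNMD, 2.87 ± 0.57, 0.0231), 1 fell (DCN, -1.13 ± 0.22, 0.0214), and 0 of 22 cartilage genes passed the test. Neither call held in the first set alone (adjusted p = 0.244 and 0.202) or in the second (0.215 and 0.303), and TNMD lost it without any of 6 single libraries and DCN without any of 4. COMP, THBS4, CILP and ANGPTL7 differed between those 2 sites without overlap. Overlap is another measure than the test, it was not counted for the list genes, and site differences chose these genes. They are therefore not compared with the lists here.

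**Figure D4:**
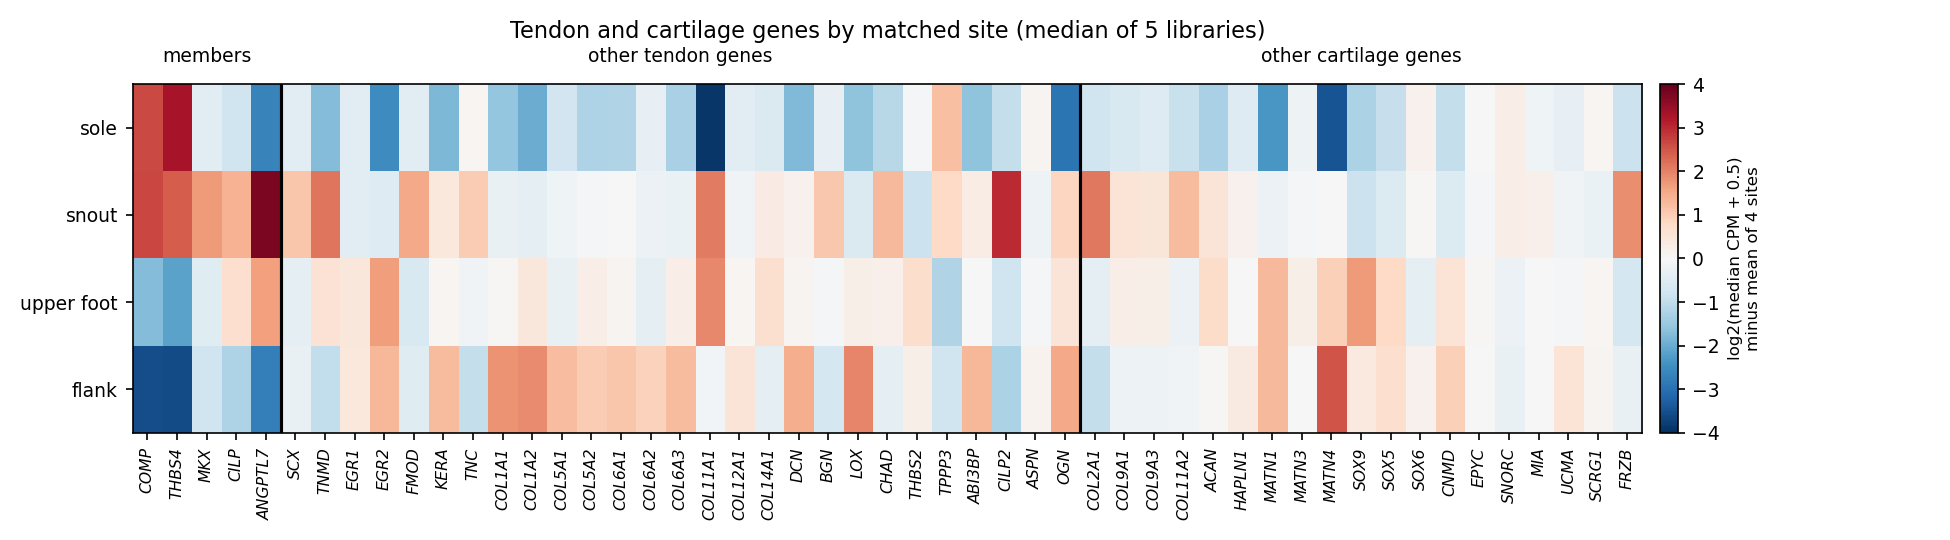
Median level over 5 libraries of the 5 genes, 27 other tendon genes and other cartilage genes at each site, as log2(CPM + 0.5) minus the mean of the 4 sites (red above, blue below). COMP and THBS4 are above the mean in sole and snout, whereas most other tendon and cartilage genes are below it in sole, COL11A1, OGN and MATN4 furthest.

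Snout libraries differed in skeletal muscle. The summed level of 10 muscle genes was 14.9 and 10.4 CPM in the 4- and 8-month snout libraries and 9514, 4605 and 7349 CPM in the 7-, 5- and 6-month ones, the last 2 being labelled volar. CILP was at 144 and 178 CPM in the 2 libraries with little muscle and at 290, 406 and 349 CPM in the 3 with more, without overlap. TNMD (3.83 and 4.06 against 7.57, 21.0 and 17.0 CPM) and SCX (0.556 and 0.462 against 1.34, 2.39 and 1.49 CPM) behaved likewise. CHAD was also higher in these 3 (2.05 and 1.71 against 3.81, 3.30 and 4.09 CPM). COMP, THBS4, MKX and ANGPTL7 overlapped between the 2 kinds of library. So did COL2A1 (4.69 and 2.16 against 6.35, 6.56 and 2.00 CPM) and CILP2 (10.0 and 12.7 against 13.9, 14.3 and 9.10 CPM). The share of all genes that separate these libraries was not computed, and 2 of the 3 with more muscle are of the second set. The part of muscle content in these levels was not tested. With the first set alone and the 7-month snout library left out, snout against flank was 7.78 for COMP, 6.57 for THBS4, 2.64 for MKX, 2.25 for CILP and 8.56 for ANGPTL7.

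THBS1 and THBS2 did not share the pattern of COMP and THBS4. THBS3 shared it in part, as it was higher in snout but was not called in sole against flank. THBS1 and THBS2, the trimeric members, were lower in sole than in flank (-1.23 ± 0.17, adjusted p = 2.44e-05, and -0.53 ± 0.22, 0.0486) and lower in snout than in flank (-1.05 ± 0.17, 0.000393, and -1.05 ± 0.22, 0.00256). In the second set alone the fall of THBS1 in snout was not called (-0.78, adjusted p = 0.112). THBS3, which like COMP and THBS4 forms pentamers, was higher in snout than in flank (0.94 ± 0.20, 0.00248) and than in upper foot (1.37 ± 0.20, 0.000209). In sole it averaged 25.6 CPM, below snout at 39.5 (-0.82 ± 0.20, 0.00359) and above upper foot at 15.1 (0.55 ± 0.20, 0.03). The last difference was not called with upper-quartile scaling (0.44, 0.0695) or without any of 6 single libraries, and it turned to -0.18 in the second set alone, while snout against flank was not called in the first set alone (0.59, adjusted p = 0.126). Sole and snout differed by -0.26 in the first set alone (0.547). THBS2 in sole against flank was -0.01 in the first set alone (adjusted p = 0.976). Its call was lost when 1 library was left out in 7 cases, among them the 6-, 7- and 8-month sole and the 4- and 5-month flank libraries, with values of -0.43 to -0.55.

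Of 10 tested integrins and other thrombospondin receptors, 2 rose and 4 fell in sole against flank, 2 rose and 3 fell against upper foot, and the same numbers against snout, near the shares of all genes given above. ITGA6, the integrin chain that anchors basal keratinocytes, rose by 1.51 ± 0.16 against flank (2.25e-06), and ITGA3 by 0.80 ± 0.12 (5.66e-05). ITGB3 fell by 1.43 ± 0.21 (5.01e-05) and ITGA7, a laminin receptor of muscle, changed by -2.27 ± 0.40 (0.000205). Of 16 known matrix partners of COMP (collagens, matrilins, fibronectin and small proteoglycans), 12 fell in sole against flank, 14 against upper foot and 16 against snout, and 0 rose. Over all genes 29.7%, 26% and 23.8% fell. Most of these partners are also in the tendon or cartilage list, and COL1A1, COL1A2 and DCN are fibroblast markers too, so this count is not a separate result. FN1 (fibronectin) fell by 2.12 ± 0.27 in sole against snout (2.59e-05). In snout against flank 4 partners rose (COL2A1, COL9A3, FN1 and BGN) and 7 fell, and FN1 was not called in the second set alone (1.54, adjusted p = 0.0613).

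Genes of the TALE homeobox class, to which MKX belongs, changed in both directions. Of 15 tested, 6 rose and 6 fell in sole against flank, 4 rose and 6 fell against upper foot, 2 rose and 4 fell against snout, and 2 rose (PBX3, PKNOX2) and 6 fell in snout against flank. Over all genes 25.4% rose and 29.7% fell in sole against flank, and 24.1% and 26% against upper foot. The shares were 19.8% and 23.8% against snout, and 15.7% and 13% in snout against flank. Calls in both directions were thus common over the whole table. IRX1, from the Iroquois genes that are relatives of MKX, fell by 5.04 ± 0.42 in sole against flank (1.95e-07). PKNOX2 rose in snout, by 1.66 ± 0.22 against flank (8.85e-05) and 1.17 ± 0.22 against upper foot (0.00152). MEIS1, a cofactor of HOX proteins, was higher in sole by 1.89 ± 0.19 against upper foot (1.16e-06) and 1.45 ± 0.18 against snout (2.33e-05).

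Of 5 tested relatives of ANGPTL7, ANGPTL5 was higher in snout, by 3.72 ± 0.39 against flank (9.86e-06) and by 3.22 ± 0.38 against upper foot (3.84e-05), and it was lower in sole than in snout (-3.56 ± 0.40, 8.12e-06). ANGPTL1 was lower in sole than in flank (-2.56 ± 0.49, 0.000459) and snout (-3.50 ± 0.51, 0.000101). Of 20 tested genes of the TGF-beta and IGF pathways, which CILP is known to inhibit, 11 fell and 4 rose in each of the 3 comparisons of sole. Over all genes 29.7%, 26% and 23.8% fell and 25.4%, 24.1% and 19.8% rose against flank, upper foot and snout. POSTN (periostin), a TGF-beta-induced matrix protein, fell by 4.32 ± 0.27 against flank (1.33e-08). LTBP2, a protein of elastic fibres, fell by 2.07 ± 0.15 against upper foot (7.02e-08). The 4 that rose were in each case the ligand TGFB1 (1.47 ± 0.19 against flank, 1.35e-05), its receptor TGFBR1 (0.83 ± 0.10, 7.55e-06), the inhibitor SMAD7 (1.08 ± 0.18, 0.000119) and the receptor IGF1R (1.05 ± 0.15, 2.35e-05).

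The 5 genes did not follow 1 common profile. Over the 20 libraries, which share pigs and sites, Pearson's r of log2(CPM + 0.5) was 0.938 for COMP and THBS4 and 0.807 for CILP and ANGPTL7. MKX and ANGPTL7 had an r of 0.688, and the other pairs lay between 0.264 and 0.596. The gene most like COMP in the whole table was TNN (tenascin N, r = 0.934), at a mean of 230, 280, 82.3 and 27.8 CPM in sole, snout, upper foot and flank, followed by NMU, SYT9, MOCS1 and MDGA2. Those most like THBS4 were C8orf74 (0.978) and 4 others, of which A2ML1 (0.973), FABP5 (0.970) and DUOXA1 (0.966) are genes of the differentiating epidermis and EPB41L4A (0.972) is not known for that.

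MKX was most like OIT3 (0.961), a gene that averaged only 0.340 CPM in snout, then SMARCE1 (0.938), ALX1 (0.937), WNT5A (0.920) and KRT24 (0.919). ALX1 is a homeobox factor of the face, and it averaged 18.9 CPM in snout and at most 0.177 CPM elsewhere. CILP was most like ITGA11 (0.902), the collagen-binding integrin chain of fibroblasts, and ANGPTL7 was most like GABRA5 (0.877), with ANGPTL5 among its 5 closest (0.845). The mean of the 5 standardised genes was most like TNC (0.929), which averaged 226, 501, 172 and 95.6 CPM in sole, snout, upper foot and flank. These correlations describe libraries that differ by site, and so any gene of the same site pattern ranks high.

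With every library kept under its deposited label the fold changes of these genes were other ones. Sole against flank became 2.30 for COMP and 1.58 for THBS4 in place of 7.70 and 7.07, and 6.97 for ANGPTL7 in place of 2.80. For CILP it became 3.42 in place of 0.03. CILP in sole turned from lower to higher than in upper foot (-2.015 to 1.173) and in snout (-2.74 to 0.42). Snout against flank became 1.09 for COMP, 0.04 for THBS4 and 1.75 for MKX, and upper foot against flank became -3.30 for COMP and -4.02 for THBS4. Under those labels edgeR called 0 of all genes in each of the 6 comparisons, with 702 to 3877 at an unadjusted p under 0.05, limma-voom called 0, and DESeq2 called 47 to 1631. In the first set alone, where labels and sites are the same, sole against flank was 8.70 for COMP, 7.56 for THBS4, 0.57 for MKX, 2.41 for CILP and 5.87 for ANGPTL7.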

How the data were processed

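Libraries were TruSeq stranded mRNA preparations of total RNA, per the labels' protocols. The authors deposited estimated counts for each Ensembl gene, which Salmon made per the submitters' processing notes. Not given in the sources used here were its version, the genome build, the annotation and the strand setting. Values were rounded to whole numbers, which 42.2% were not. Symbols were matched for 14821 of 19280 identifiers.

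After filterByExpr (at least 10 counts, 15 in total) 15735 genes were scaled with TMM and tested with the robust quasi-likelihood F test of edgeR 4.0.16 in R 4.3.3, at a Benjamini-Hochberg adjusted p under 0.05. One fit of 8 groups (site by set, 12 residual degrees of freedom) gave each comparison as the mean of its difference in the 2 sets, and the difference between sets as first minus second. Scripts were tested on simulated data. Alternatives were other scalings, no filter, DESeq2 1.42.0, limma-voom (limma 3.58.1), the pig as block, either set alone, the deposited labels, removal of the 20 top genes, and removal of each library or pig.

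Libraries are paired, since per the labels each pig gave all 4 sites. Between libraries of the same pig, deviations from the group means correlated with a median r of 0.21 (range -0.0048 to 0.43, first set) and 0.31 (0.11 to 0.43, second set). The highest r between any 2 libraries was 0.988, and none was a copy. Reads carry no molecular identifiers in the table, so limits from a count of 0 cover counting error only.

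The genes and lists were chosen with earlier results of these data known. Genes were named by a rule. It took the 5 genes, the defining tendon and cartilage genes, the close relatives, and for each list and comparison of sole up to 4 genes with the smallest adjusted p that averaged 1 CPM or more in the higher site. For likeness it took the 5 genes with the highest r. List genes named in comparisons of snout or upper foot, TNC, TPPP3, SNORC, SCRG1, HAPLN1, CNMD, MTOR, and the pathway genes that rose in sole were chosen after their values were seen.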

Additional observations from a re-analysis of the deposited data

Results flagged for a closer look

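Of the 20 groups of 5 libraries (5 genes, 4 sites), 2 held a library far from the other 4 by Dixon's ratio on CPM, not on a log scale. The ratio's nominal chance rate of about 1 in 20 assumes normal values and independent groups. Levels spread up to 781-fold within a site and the groups share pigs and libraries, so that rate need not hold here. ANGPTL7 was at 107 CPM in the sole library of the 4-month pig, with the other sole libraries at 0.137 to 2.80 CPM. It was at 398.4 CPM in the snout library of the same pig, with the others at 61 to 102 CPM. CILP differed between the 2 sets of libraries in the comparisons of sole, by 4.774 on the log2 scale against flank, 4.405 against upper foot and 5.13 against snout. CILP2, which is not one of the 5 genes, was at 50.3 CPM in the 4-month sole library and at 0.0457 to 0.798 CPM in the other 4.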

How the results depend on the processing

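Under the deposited labels all counts of called genes, and of tendon or cartilage genes lower in sole, were 0. Outside the 5 genes, 13 named differences changed sign: in sole against flank SMAD7 (-0.24), PBX3 (-0.033), ANGPTL1 (0.81), COL11A1 (2.22) and ACAN (0.84), in sole against snout THBS3 (0.24), FN1 (0.036), SCX (1.03), COL2A1 (0.15) and CILP2 (0.99), in snout against flank THBS1 (0.068) and THBS2 (0.087), and in upper foot against flank DCN (0.42). Of the 5 genes, CILP became 1.173 in sole against upper foot and 0.42 against snout, in place of -2.015 and -2.74. ANGPTL7 became 2.405 in sole against upper foot, in place of -2.725. In upper foot against flank COMP, THBS4 and MKX became -3.30, -4.02 and 0.39, in place of 2.86, 1.63 and -0.02. Alone, the first set called 5032, 3694 and 1768 genes in sole against flank, upper foot and snout, 2024 and 1212 in snout against flank and upper foot, and 20 in upper foot against flank. The fits had fewer libraries. Tendon genes lower in sole numbered 7 against upper foot and 5 against snout, and cartilage genes 7 against flank and 7 against snout. ACAN was 0.13 in sole against flank and CILP2 0.49 in sole against snout. The second set alone called 1981 and 1551 genes in snout against flank and upper foot and 6 in upper foot against flank. There in sole against flank THBS3 was -0.10, SCX -1.54, COL2A1 -2.56 and CILP2 -1.88, and THBS3 was -0.18 against upper foot. The cause was not tested.

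SCX in sole against flank (0.03) was -0.072 with upper-quartile scaling and -0.069 with limma-voom. Upper foot against flank, 234 genes, became 746 with DESeq2 and 426 with the pig as replicate block. The block changed no other count by over 1.5 times, ended the call of SCRG1 in sole against snout and left the CILP calls in place. Of the 30 tests between sets DESeq2 called 6 and limma-voom 0. Upper-quartile scaling moved the median of all genes in sole against flank from -0.06 to -0.17 and against upper foot from -0.05 to -0.17, and the share of calls that were higher in snout against upper foot from 61% to 49.3%.

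With single libraries or pigs left out, counts ran from 6429 to 8692 in sole against flank, 5592 to 8130 against upper foot and 4218 to 7153 against snout. They ran from 1860 to 4730 in snout against flank, 1263 to 3701 in snout against upper foot and 5 to 385 in upper foot against flank, the lowest of each without the 5-month pig. Tendon genes lower in sole ran from 14 to 19, 16 to 17 and 13 to 21, cartilage genes from 11 to 12, 11 to 12 and 10 to 15, and tests between sets from 0 to 3. In sole against flank, SCX turned negative in 5 such fits (range -0.32 to 0.26), THBS3 in 3 (-0.076 to 0.27), CILP2 in 2 (-0.37 to 2.72) and COL2A1 in 2 (-1.39 to 2.17). Levels under a few counts, as of ANGPTL7 in sole and COMP in flank, limit their folds.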
